A study of Mus musculus with 12 samples.

Results

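Oxidative phosphorylation is the last step of respiration, in which the mitochondrial inner membrane passes electrons from food to oxygen and makes ATP from the energy released. The nuclear-encoded loci of this machinery were taken as those of the table whose gene name begins with Nduf, Uqcr, Cox4 to Cox8 or Atp5 or is Sdha, Sdhb, Sdhc or Sdhd, leaving out the muscle and fat forms Cox6a2, Cox7a1 and Cox8b. This gave 92 loci of 89 gene symbols among the 27109 loci of the table. Of these, 39 loci belong to complex I, 4 to complex II, 8 to complex III, 17 to complex IV and 15 to complex V. The remaining 9 carry a matching name but encode no subunit, namely the complex I assembly factors Ndufaf1 to Ndufaf7, and Atp5s and Atp5sl, which are only named after ATP synthase. Ndufa4 and Ndufa4l2 were placed with complex IV, since the Ndufa4 protein is a subunit of that complex despite its name, and Cox7a2l was placed there too.

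Poly(A) RNA of mouse liver (strain C57BL/6) was sequenced in 12 libraries, 3 in each of 4 groups. Wild-type mice and mice carrying a liver-specific Atf4 knockout (LsATF4-/-) were compared. Atf4 encodes a transcription factor made under endoplasmic reticulum (ER) stress. Mice of both genotypes were injected intraperitoneally with 1 mg/kg tunicamycin or with 0.3% DMSO, and livers were taken after 6 h. Tunicamycin blocks N-linked glycosylation and thereby causes ER stress. The sources used here do not give the Cre line, the deleted exons or the age and sex of the mice, nor whether each library is 1 animal, so that p-values measure the spread between libraries only. Levels are given as FPKM, fragment counts divided by transcript length and library size, with 1 value per locus and group, pooled by the authors over 3 libraries, so no SD can be given and the depth is unknown. The locus that merges Atf4 with Cacna1i stood at 46.9 FPKM in wild-type and 22.8 in knockout liver under DMSO, and at 356 and 114 under tunicamycin. Lane 5 carried the knockout DMSO libraries and lane 4 the 9 others. Wherever the knockout DMSO group enters, lane and group cannot be told apart.

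As background, complex I (NADH dehydrogenase) takes electrons from NADH, complex II (succinate dehydrogenase) takes them from succinate, and both hand them to ubiquinone. Complex III passes them on to cytochrome c, complex IV (cytochrome c oxidase) gives them to oxygen, and complex V (ATP synthase) lets protons flow back to make ATP. Hepatocytes are rich in mitochondria. A small part of complexes I, III, IV and V is encoded by mitochondrial DNA, and those transcripts were not analysed here. The nuclear genes are scattered over the chromosomes and many are known to carry promoter sites for NRF1, for ETS factors such as GABP, for YY1 and for the oestrogen-related receptors (ERR).

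The promoters of 5 members picked by their responses to tunicamycin are shown first, because the values below return to them. As they were picked this way, matches among the 5 cannot be compared with their responses. Atp5g3 and Atp5g1 encode the same mature protein of the ATP synthase c-ring, of which the first fell and the second did not pass the test, Sdhd and Uqcrh had the largest falls of complexes II and III, and Cox7a2l had the highest fold change of the tested loci of the 5 complexes in both genotypes. The sequences are RefSeq's on mouse build GRCm38.p6, each on the minus strand and written 5' to 3', and hold those of the 250 bases before the annotated start that overlap no annotated exon. They span chr2:73911327-73911576 for Atp5g3, chr11:96075671-96075881 for Atp5g1, chr9:50603850-50603909 for Sdhd, chr4:116075072-116075268 for Uqcrh and chr17:83514334-83514583 for Cox7a2l. Capitals mark a match on either strand to an ERR motif (TCAAGGTCA) in Atp5g3, beginning 52 bases before the start, and to an ETS motif (CCGGAAG) in Sdhd and Uqcrh, beginning 46 and 10 bases before it.
Atp5g3: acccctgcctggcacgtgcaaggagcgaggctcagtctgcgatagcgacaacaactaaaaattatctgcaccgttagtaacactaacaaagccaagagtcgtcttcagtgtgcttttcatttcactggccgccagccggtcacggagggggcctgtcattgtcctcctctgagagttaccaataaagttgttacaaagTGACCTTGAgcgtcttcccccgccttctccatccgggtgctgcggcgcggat
Atp5g1: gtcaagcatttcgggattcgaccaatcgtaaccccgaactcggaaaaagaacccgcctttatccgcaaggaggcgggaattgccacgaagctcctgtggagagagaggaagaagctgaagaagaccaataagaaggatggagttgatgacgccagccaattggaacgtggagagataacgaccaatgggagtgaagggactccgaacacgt
Sdhd: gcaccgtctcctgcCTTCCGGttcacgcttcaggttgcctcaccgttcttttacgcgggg
Uqcrh: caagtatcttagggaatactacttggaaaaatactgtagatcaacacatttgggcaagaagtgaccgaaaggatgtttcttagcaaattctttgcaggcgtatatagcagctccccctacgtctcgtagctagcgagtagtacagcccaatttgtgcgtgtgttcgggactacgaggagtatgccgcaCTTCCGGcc
Cox7a2l: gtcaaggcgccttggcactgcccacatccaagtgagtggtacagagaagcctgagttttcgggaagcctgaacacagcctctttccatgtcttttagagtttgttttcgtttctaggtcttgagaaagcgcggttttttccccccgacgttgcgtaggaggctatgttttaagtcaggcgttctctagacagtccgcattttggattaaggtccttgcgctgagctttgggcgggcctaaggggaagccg
Atp5g1 and Cox7a2l had no match to any motif searched in these stretches. A match is a run of letters and not a measured binding site.

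Motif matches were then counted over the 300 bases around the start (250 before, 50 after) for the 74 of 89 symbols with a RefSeq promoter, 3 of them found under a newer name. The NRF1 motif, GCGCA and GCGC with any base between, was present in 19 of 74 promoters (25.7%), against 4.60% of all 32851 promoters of that length. The ETS motif CCGGAAG was present in 17 (23.0%, against 8.86%), and 4 members had both. The YY1 motif AAGATGGC was present in 11 (14.9%, against 2.75%), of which 7 belong to complex I, and the ERR motif in 2 (2.70%, against 0.423%), Atp5g3 and Sdhd. The composite C/EBP-ATF motif TTGCATCA, the kind of element ATF4 can bind, was in 0 of 74 (0.895% of all promoters), and the ER stress element, CCAAT and CCACG with any 9 bases between, was also in 0 (0.119%). The median log2 fold change after tunicamycin in wild type was -0.79 for the 18 tested genes with an NRF1 match and -0.81 for the 54 without. All 11 genes with a YY1 match fell in wild type (median -0.89), as did 45 of 61 without (median -0.79). With an ETS match 15 of 17 fell (median -0.91), as did 41 of 55 without (median -0.79). With an ERR match 2 of 2 fell, as did 54 of 70 without. These splits are descriptions given with no test.

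Nuclear transcripts of all 5 complexes were lower after tunicamycin in wild-type liver. At a q under 0.05 in the authors' deposited table, 68 of the 88 tested loci fell and 0 rose, where 19.0% of all 14998 tested loci fell, 18.1% rose and 37.1% changed either way. The median log2 fold change of the 88 was -0.79, against -0.02 over all tested loci, and 85 of 88 were below 0. Together the 92 loci held 19391 FPKM in wild-type liver with DMSO and 10783 after tunicamycin, so 55.6% was left, while 82.1% was left of the sum over all loci of the table. In the knockout 39 of 88 fell and 0 rose (14.8% and 18.1% of all 15534 tested loci, 33.0% either way), with a median of -0.52 against 0.01 over all, and 66.3% of the DMSO sum was left. All 39 had also fallen in wild type, 29 fell in wild type without passing in the knockout, and 20 passed in neither. Both DMSO groups stood above both tunicamycin groups at 83 of the 88 loci, and wild type with DMSO was the highest of the 4 groups at 80.

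**Figure D1:**
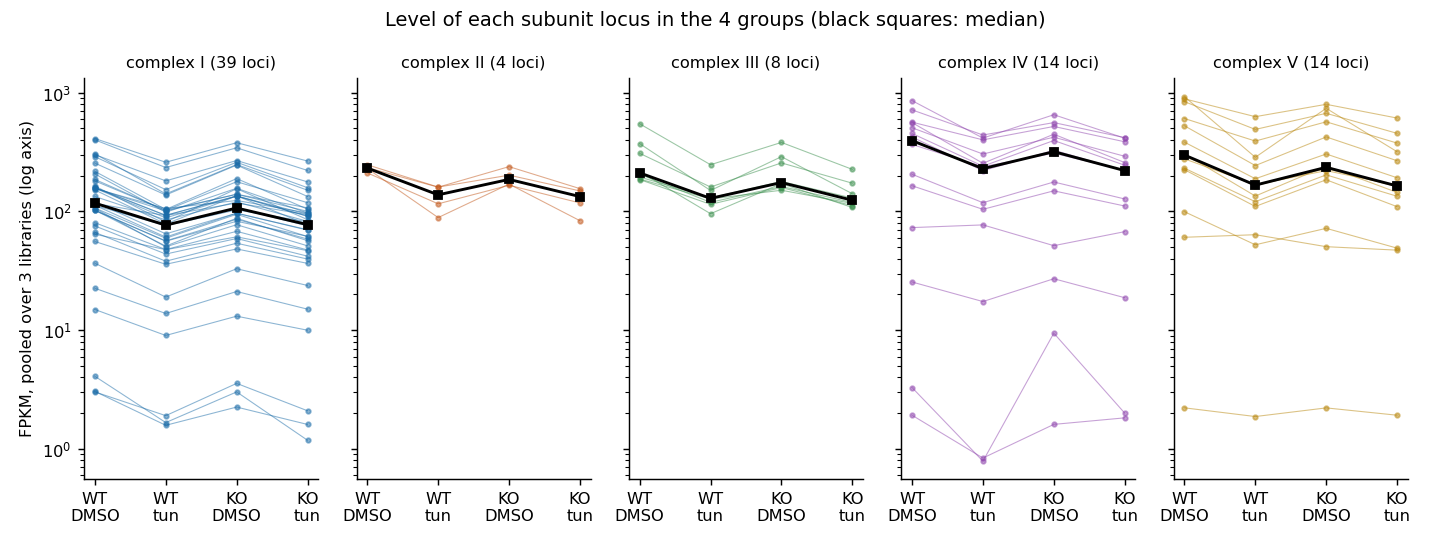
FPKM (log axis) of each subunit locus with a mean of at least 1 FPKM in wild type (WT) and knockout (KO) liver under DMSO and tunicamycin (tun), 1 panel per complex; lines join the 4 pooled values of a locus and black squares are medians. Nearly every line drops from DMSO to tunicamycin in both genotypes, and the complex III median goes from 211 to 129 FPKM in wild type.

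In bulk tissue, fewer cells of a type and less RNA per cell cannot be told apart. The 5 hepatocyte markers also stood lower after tunicamycin, with a sum of 14059 FPKM in wild type with DMSO and 7390 with tunicamycin, and 11565 and 6597 in the knockout. Of these, 4 were tested, 2 fell in each genotype, and albumin was listed at 0 in all 4 groups. The part of this in the members' fall was not tested. Scaling mattered too: setting all groups to the same FPKM sum added 0.28 to every log2 fold change in wild type and 0.17 in the knockout. The members' medians were then -0.51 and -0.35, and those of all tested loci 0.26 and 0.18. On any such scale the members' medians lie 0.77 and 0.53 below those of all loci, since every locus moves alike. An approximate test built from the deposited statistics and adjusted over all loci called 73 members in wild type and 41 in the knockout without rescaling. On the same-sum scale it called 42 lower and 0 higher in wild type, and 18 lower and 1 higher in the knockout. The share of all loci called by this test was not counted on either scale, so these member counts have no background beside them.

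Complex I is the largest of the 5, with an arm in the matrix that holds the flavin and iron-sulfur centres and an arm in the membrane that pumps protons. Its loci fell at 31 of 39 in wild type and at 19 of 39 in the knockout (medians -0.82 and -0.52), and none had a fold change above 0 in either genotype. The matrix arm fell at 14 of 16 and the membrane arm at 17 of 22 in wild type, and at 9 and 10 in the knockout. Among the 7 core subunits, which carry out the electron transfer, 5 fell in wild type and 4 in the knockout. Ndufv1, which binds NADH, stood at 117 FPKM with DMSO and 76.6 with tunicamycin in wild type, and at 107 and 75.5 in the knockout. Ndufv2, its iron-sulfur partner, went from 75.5 to 43.8 and from 59.1 to 42.0. Both fell in each genotype, and no value with tunicamycin reached either value with DMSO.

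Ndufs7, the last iron-sulfur subunit before ubiquinone, went from 102 to 56.5 FPKM in wild type and from 85.9 to 58.5 in the knockout, and fell in both. Ndufs8 went from 103 to 56.1 and from 82.6 to 61.7, a fall that passed the test in wild type only. Ndufs1 and Ndufs3 did not pass in either genotype. Ndufs1, the largest iron-sulfur subunit, stood at 64.4, 47.6, 61.1 and 46.7 FPKM in the order wild-type DMSO, wild-type tunicamycin, knockout DMSO and knockout tunicamycin, which is kept below. Ndufs3 stood at 55.8, 35.9, 48.3 and 36.5, also lower in both tunicamycin groups.

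Accessory subunits of complex I fell at 26 of 32 loci in wild type (median -0.83) and at 15 in the knockout. The highest levels were those of Ndufa1, a small membrane-arm subunit, with 411, 259, 379 and 266 FPKM at its main locus, where the fold change of -0.66 had an approximate standard error (SE, derived from the deposited statistic) of 0.46 and did not pass. A second Ndufa1 locus in the same interval, at 80.4, 47.8, 68.0 and 47.4 FPKM, fell in wild type. Ndufb9 stood at 401, 234, 343 and 221 and Ndufa6 at 301, 181, 268 and 177, and both fell in each genotype. The largest fall of complex I that passed the test in wild type was that of Ndufa3, from 306 to 140 FPKM (log2 fold change -1.12 ± 0.21, approximate SE; q = 0.000396 in the authors' deposited table). Among falls that passed in knockout liver it was that of Ndufs6, from 246 to 134 (-0.88 ± 0.31; q = 0.0199 in the authors' deposited table), with 255 and 137 in wild type. Ndufb4, at 4.09, 1.67, 3.02 and 1.18 FPKM, had lower fold changes still (-1.29 ± 0.54 and -1.35 ± 0.59) but did not pass (q = 0.0725 and 0.108 in the authors' deposited table). At the other end, Ndufa8, a membrane-arm subunit, went only from 117 to 92.3 and from 118 to 93.8 and passed in neither genotype. Ndufa13 and Ndufb2 also had 2 loci each in 1 interval, of which the minor ones stood at 3.02 and 3.05 FPKM in wild type with DMSO. RefSeq names a pseudogene copy of Ndufa12, Ndufab1 and Ndufs5 each, with which reads could be shared, so that their levels are less certain.

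All 4 subunits of complex II fell in wild type and 2 of them fell in the knockout (medians -0.74 and -0.55). Sdha, the flavoprotein that oxidises succinate, stood at 234, 160, 238 and 156 FPKM and fell in both genotypes. Sdhb, the iron-sulfur protein, stood at 247, 160, 202 and 149 and fell in wild type only by the test. The membrane anchor Sdhc stood at 211, 116, 166 and 118, also passing in wild type only. The other anchor, Sdhd (mm9 chromosome 9, 50404444 to 50411954), changed most, from 230 to 88.7 FPKM in wild type (-1.37 ± 0.19) and from 170 to 83.5 in the knockout (-1.02 ± 0.20), both at q = 0.000396 in the authors' deposited table. Levels of the 4 subunits lay between 211 and 247 FPKM in wild type with DMSO and between 88.7 and 160 after tunicamycin, so they were more alike before the treatment than after it.

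All 8 complex III loci fell in wild type (median -0.86) and 5 fell in the knockout (median -0.54). Uqcrq, the most abundant, stood at 547, 247, 381 and 226 FPKM. Uqcrh, the hinge protein near cytochrome c1 (mm9 chromosome 4, 115739569 to 115747675), stood at 372, 150, 289 and 141 and had the complex's largest fall in both genotypes (-1.31 ± 0.19 and -1.04 ± 0.20). Uqcr10 stood at 309, 161, 256 and 173. These 3 small accessory subunits fell in both genotypes, and the next 3 passed the test in wild type only. The Rieske iron-sulfur protein Uqcrfs1 stood at 206, 119, 162 and 119, the core protein Uqcrc1 at 195, 130, 179 and 130, and its partner Uqcrc2 at 187, 127, 151 and 117. Uqcr11 stood at 216, 95.7, 172 and 108 and fell in both genotypes (-1.18 ± 0.21 and -0.67 ± 0.21). Cyc1, the cytochrome c1 of the same complex, which the name rule does not take in, fell in wild type only by the test, at 225, 136, 190 and 138 FPKM.

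Complex IV loci fell at 11 of 14 tested in wild type and at 6 in the knockout (medians -0.76 and -0.51). Ndufa4, the most abundant, stood at 857, 415, 652 and 414 FPKM and fell in both genotypes (-1.05 ± 0.20 and -0.66 ± 0.20). Cox4i1, the general form of subunit 4 and a regulatory site for ATP, stood at 716, 440, 560 and 418. Cox5a stood at 366, 238, 309 and 222, and Cox5b, the zinc-binding subunit, at 205, 118, 177 and 127. These 3 fell in wild type and did not pass in the knockout. Cox6a1, the liver form of subunit 6a, had a small fall at a high level, with 565, 400, 519 and 386 FPKM, and passed in wild type only. Cox6b1 (453, 241, 395 and 245), Cox7b (560, 254, 447 and 258) and Cox8a (506, 304, 422 and 291) fell in both genotypes, and Cox7a2, the liver form of subunit 7a, with 164, 104, 149 and 111, in wild type. Cox7c stood lower, at 25.5, 17.4, 27.1 and 18.8, and passed in neither.

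The alternative forms of complex IV subunits were low. Cox4i2, the form of lung, stood between 0.0951 and 0.235 FPKM and was not tested, and the testis forms Cox7b2 and Cox8c were listed at 0 in all 4 groups. Ndufa4l2, a relative of Ndufa4 known from low oxygen, stood at 1.92, 0.838, 1.61 and 1.83. Cox6b2, the testis form of subunit 6b (mm9 chromosome 7, 4703393 to 4704696), was the exception, standing under DMSO at 3.29 FPKM in wild-type and 9.44 in knockout liver, and after tunicamycin at 0.789 and 2.0. It fell in both genotypes (-2.06 ± 0.72 and -2.24 ± 0.47) and was the only member higher in the knockout (1.52 ± 0.46 under DMSO; q = 0.0149 in the authors' deposited table). It still made up only 0.720, 0.327, 2.33 and 0.811% of the FPKM of Cox6b1 and Cox6b2 together.

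Cox7a2l, also called SCAF1, is known as a factor that joins complexes III and IV into a supercomplex. Whether its product does so in these mice was not tested. The Cox7a2l locus passed the tunicamycin test in neither genotype (mm9 chromosome 17, 83901256 to 83913930). It stood at 73.1 FPKM in wild type with DMSO and 77.0 with tunicamycin, and at 51.5 and 67.6 in the knockout. The fold changes of 0.08 ± 0.19 and 0.39 ± 0.20 did not pass (q = 0.856 and 0.132 in the authors' deposited table). Its level in the knockout with DMSO was the lowest of the 4.

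**Figure D2:**
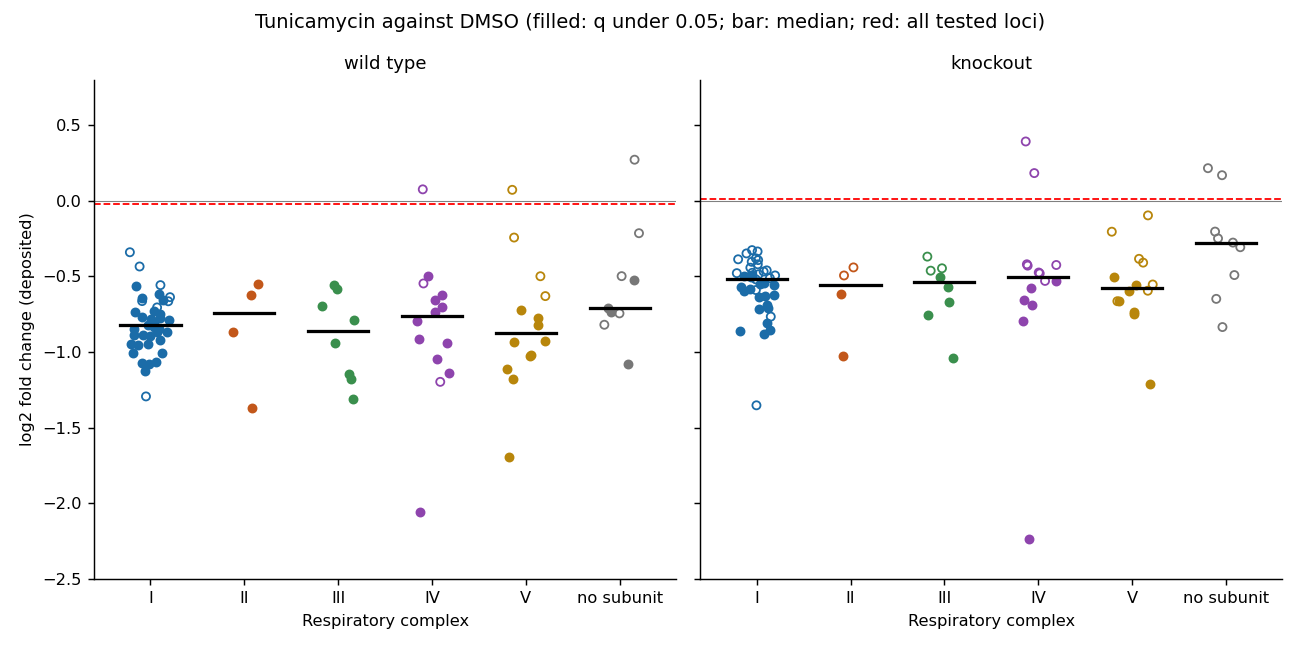
log2 fold change of tunicamycin against DMSO for each tested locus by complex, wild type left and knockout right; filled points have a deposited q under 0.05, bars are medians of each complex and the red dashed line is the median of all tested loci. The 5 medians lie between -0.87 and -0.74 in wild type and between -0.58 and -0.51 in the knockout, and rescaling all groups to the same FPKM sum would move the points up by 0.28 and 0.17.

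Complex V fell at 10 of 14 tested loci in wild type and 7 in the knockout (medians -0.87 and -0.58). All 4 subunits of the peripheral stalk, which holds the catalytic head still, fell in wild type, and 1 of them, Atp5o, fell in the knockout. In the F1 head and shaft 3 of 5 fell in each genotype, and they were the shaft subunits. Atp5c1, the rotating gamma subunit, stood at 291, 165, 229 and 162 FPKM, Atp5d at 231, 121, 203 and 134, and Atp5e at 526, 243, 424 and 267. The head subunits did not pass in either genotype. Atp5b, the catalytic beta subunit, stood at 887, 628, 798 and 611 FPKM (-0.50 ± 0.26 in wild type), and Atp5a1, the alpha subunit, at 606, 391, 568 and 376 (-0.63 ± 0.27). Both were nonetheless lower in each tunicamycin group than in either DMSO group.

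The largest fall of all members above 10 FPKM was that of Atp5k, subunit e, which lets the synthase form dimers and shape the cristae. It stood at 925 FPKM in wild type with DMSO, the highest value of any member, and at 286 after tunicamycin, and at 738 and 318 in the knockout. The log2 fold changes of -1.70 ± 0.20 and -1.21 ± 0.20 both had q = 0.000396 in the authors' deposited table. Atp5k's transcript is the shortest of the members (321.5 nt), and RefSeq names 4 pseudogene copies of it, so that its level is less certain. Copies were found by names built on the gene's own symbol, so any under other names were not counted, for this or any other member. Its locus also overlaps that of Pde6b. RefSeq further names 2 copies of Uqcrh and 1 each of Cox5b, Cox7c and Atp5c1. Atp5l, subunit g and its partner in the dimer, was listed at 2.22, 1.87, 2.22 and 1.92 FPKM and passed in neither genotype, and RefSeq names 2 copies of it. Atp5j2, subunit f, fell in both, at 305, 135, 241 and 144.

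The c-ring, the rotor through which protons pass, is made from 1 protein encoded by 3 genes. Atp5g3 was the main source, with 841, 490, 670 and 455 FPKM, and fell in both genotypes (-0.78 ± 0.20 and -0.56 ± 0.20). Atp5g1 stood at 60.6, 63.7, 50.5 and 47.2 and passed in neither (0.07 ± 0.20 and -0.10 ± 0.21). Atp5g2 stood between 0.122 and 0.277 FPKM and was not tested. The share of Atp5g1 in the FPKM of the 3 genes was therefore 6.72% in wild type with DMSO and 11.5% with tunicamycin, and 7.0 and 9.41% in the knockout.

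Among the members that are no subunits, 4 of 9 fell in wild type and 0 in the knockout. Ndufaf6 stood at 20.3, 9.60, 12.8 and 8.14 FPKM, Ndufaf1 at 21.4, 14.8, 18.1 and 14.9, Ndufaf7 at 7.06, 4.24, 6.59 and 5.32, and Atp5sl at 29.2, 17.9, 20.2 and 14.3, and these 4 fell in wild type. Ndufaf2 stood at 41.6, 23.6, 37.8 and 21.2, Ndufaf3 at 10.8, 7.67, 9.32 and 7.84, and Ndufaf5 at 6.06, 3.62, 5.36 and 4.65. Ndufaf4 stood at 15.0, 13.0, 13.1 and 14.7 and Atp5s at 3.65, 4.41, 3.87 and 4.50. These 5 passed in neither genotype, and the last pair had tunicamycin fold changes between -0.21 and 0.27.

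The response of the 2 genotypes was compared directly, as the difference of log2 fold changes over its approximate SE, adjusted by Benjamini-Hochberg over 14510 loci. None of the 88 members passed and 0 had an unadjusted p under 0.05, where 1.03% of all loci passed and 5.27% had such a p. The fold change was more negative in wild type at 81 of the 88, with a median difference of -0.25 (all loci -0.04). The lowest p was that of Uqcr11, whose fold changes differed by -0.51 ± 0.29. The median SE of a single difference was 0.30, so differences of this size were not detectable locus by locus, and the lower count in the knockout does not show that any member responded differently. Both responses also draw on different DMSO groups, run on different lanes.

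**Figure D3:**
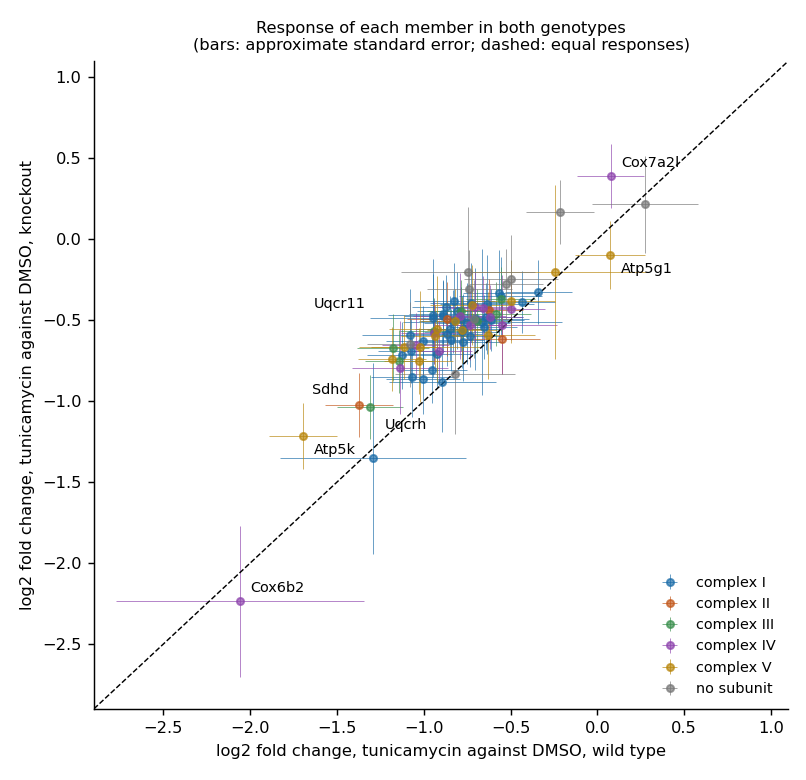
log2 fold change of tunicamycin against DMSO in wild type (x axis) and knockout (y axis) for 86 members, coloured by complex, with bars of 1 approximate standard error; 2 loci whose difference had a standard error of 1 or more are not drawn. Of the points, 80 lie above the dashed line of equal responses, with Atp5k and Sdhd far down and Cox7a2l and Atp5g1 near 0. The median difference of the members was -0.25, the median standard error of a difference was 0.30, and 0 differences passed the test.

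Few of these loci differed between knockout and wild-type liver without stress. Under DMSO 3 members were lower and 1 was higher in the knockout, of 88 (1.47 and 1.39% of all 14788 tested loci, 2.86% together). Uqcrq was lower at 381 against 547 FPKM (-0.52 ± 0.20), Cox7a2l at 51.5 against 73.1 (-0.51 ± 0.20) and Ndufaf6 at 12.8 against 20.3 (-0.67 ± 0.24), and Cox6b2 was higher. Their q-values in the authors' deposited table were 0.0417, 0.0366, 0.0271 and 0.0149. None of the 4 passed when the deposited p-values were adjusted within this comparison alone, since the deposited q pools the tests of 6 comparisons. The approximate test called 0 of the 88 members here without rescaling, and 0 lower and 1 higher on the same-sum scale. The share of all loci it called was not counted.

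Most members nevertheless stood slightly lower in the knockout with DMSO. The fold change was below 0 at 82 of 88, with a median of -0.23, against 59.1% of all tested loci and a median of -0.07. The sign depends on the scale, which moves all loci alike and leaves the members' median 0.16 below that of all loci. Centred on the median locus the members' median was -0.14 with 75 of 88 below 0, on the same-sum scale without the 100 most abundant loci it was -0.04 with 56 below 0, and on the full same-sum scale it was 0.02 with 39 below 0. Members with a mean of 100 to 1000 FPKM had a median of -0.25, close to the -0.22 of other loci at that level. The comparison sets lane 5 against lane 4, and 5 of 5 endothelial markers were higher in the knockout (sums of 31.5 in wild type and 55.6 FPKM), as were 2 of 5 stellate cell and fibroblast markers. The part of either in these values was not tested.

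**Figure D4:**
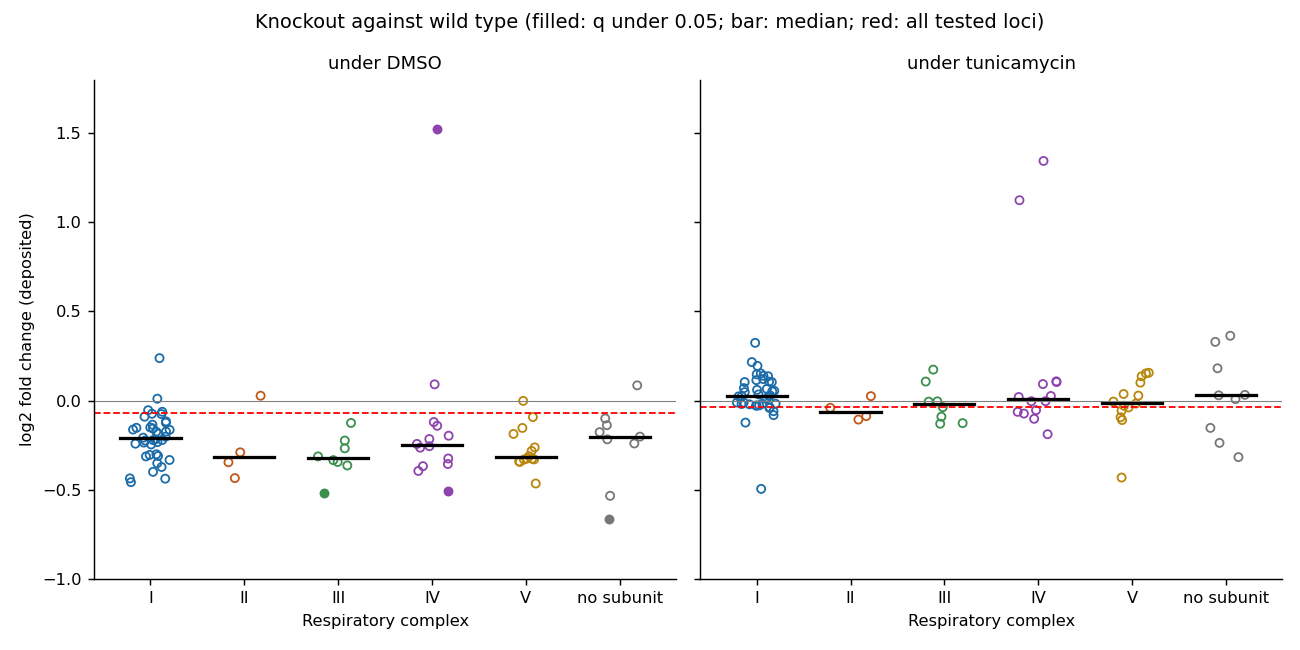
log2 fold change of knockout against wild type under DMSO (left) and tunicamycin (right) by complex; filled points have a deposited q under 0.05, bars are medians and the red dashed line is the median of all tested loci. Medians lie between -0.32 and -0.20 under DMSO, where a same-sum scale would move points and dashed line up alike by 0.25, and between -0.06 and 0.03 under tunicamycin.

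Under tunicamycin 0 of 88 members differed between the genotypes in the authors' deposited table (5.92% of all 14919 tested loci did, 2.19% lower and 3.73% higher in the knockout). An unadjusted p under 0.05 was found at 2 of the 88 members and at 1551 of the 14919 tested loci. By the approximate test 0 members differed too, and the share of all loci it called was not counted. The median log2 fold change was 0.01, with 42 members below 0. Centred on the median locus 19 members were below 0 (median 0.07), without the 100 most abundant loci 9 (0.12) and on the full same-sum scale 6 (0.15), so the balance of signs depends on the scale. The sums of all 92 loci were 10742 FPKM in the knockout and 10783 in wild type. By complex the knockout sum was 102% of that of wild type for complex I, 96.4% for II, 98.2% for III, 98.3% for IV and 99.7% for V. Under DMSO the same shares were 87.1, 84.2, 78.8, 82.3 and 83.1%. The sums of all loci in the table stood at 90.7% under tunicamycin and 83.9% under DMSO, so the members' share of all FPKM was 2.84% in wild-type and 2.83% in knockout liver under DMSO, and 1.93 and 2.11% under tunicamycin.

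The knockout tunicamycin group also held transcripts of other tissues. Against wild type with tunicamycin, 7 of 10 muscle and 3 of 6 adrenal cortex markers were higher, and kidney markers were all listed at 0 in both knockout groups. Summed FPKM of 6 adrenal cortex markers was 1264 there and between 6.76 and 23.4 in the other groups, and that of 10 skeletal muscle markers was 352 against 7.24 to 17.2. Medulla markers (4 genes) stood at 78.9 against at most 0.160, fat markers (4) at 99.4 against at most 3.42, and brown fat markers (5) at 44.4 against at most 9.61. Most of the brown fat sum came from Cox7a1 and Cox8b. Against wild type with tunicamycin, Cox7a1 was higher and Elovl3, another brown fat marker, was lower. Cox7a1, Cox8b and Cox6a2 are the left-out muscle and fat forms of complex IV subunits and themselves members of the marker lists, and all 3 were at their highest in that group. Cox7a1 stood at 7.58, 3.90, 4.89 and 16.4 FPKM, which was 12.8% of the FPKM of Cox7a1 and Cox7a2 in the last group. Cox8b reached 17.1 FPKM there (5.54% of the pair with Cox8a) against at most 0.239 elsewhere, and Cox6a2 11.6 (2.91% of the pair with Cox6a1) against 8.54 in wild type with tunicamycin. How much of the general subunits' RNA in that group came from other tissue was not tested.

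Level and transcript length were set beside the falls, since members are abundant and short. Of the members with a mean of 100 to 1000 FPKM, 47 of 52 fell in wild type, against 44.6% of other loci at that level, with medians of -0.82 and -0.50. In the knockout 33 of 52 fell (63.5%), against 39.2%. Members at 10 to 50 FPKM fell at 6 of 11 in wild type, against 20.2% of other loci at that level, and at 0 of 11 in the knockout, against 15.6%. The median transcript length was 711 nt for the members and 2106.5 nt for all loci at 1 FPKM or more. Below 500 nt, 11 of 12 members fell in wild type, against 22.4% of other loci. Over 87 members the log2 length and the log2 fold change had Pearson's r = 0.34 and Spearman's rho = 0.31 in wild type and 0.32 and 0.34 in the knockout, a description across genes that share libraries, lengths and depth and are not independent. Over 10074 loci the wild-type values were 0.10 and 0.15.

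**Figure D5:**
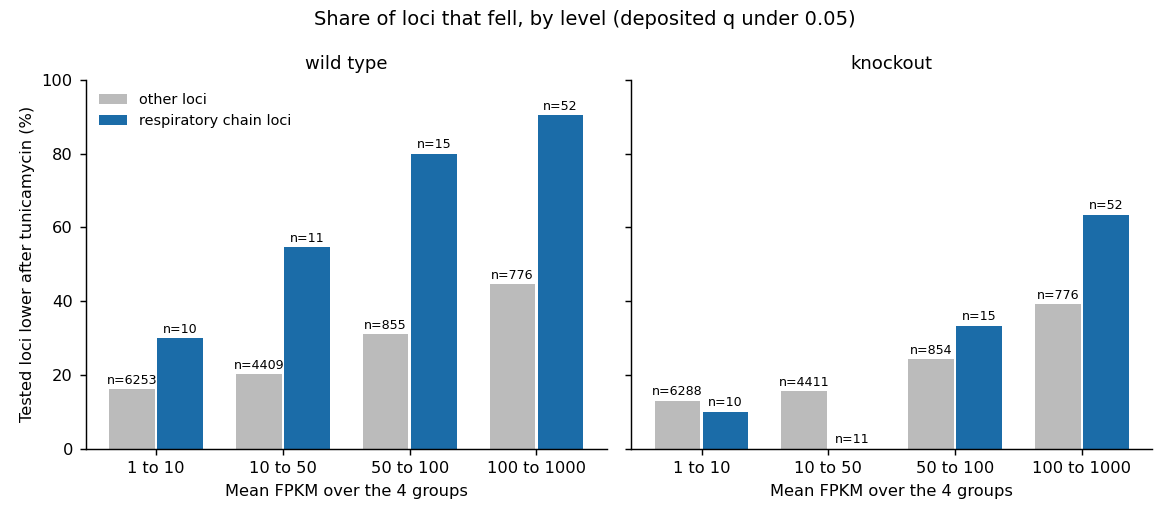
Share of tested loci that fell after tunicamycin (deposited q under 0.05) by mean FPKM over the 4 groups, for respiratory chain loci (blue) and all other loci (grey), with the number of loci over each bar. In wild type the blue bar is the higher at each level, up to 90.4% against 44.6% at 100 to 1000 FPKM, and in the knockout it is the higher between 50 and 1000 FPKM.

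Other genes of the pathway were counted from lists of known roles. Assembly factors outside the name rule fell at 4 of 25 in wild-type and 2 of 25 in knockout liver, with 0 higher, where 19.0% and 14.8% of all tested loci fell and 18.1% rose in each genotype (medians -0.23 and -0.08, beside -0.82 and -0.53 for the 79 tested subunits and related loci of the 5 complexes). Sdhaf1, which matures the complex II iron-sulfur subunit, was among the 4, with 19.7, 12.3, 15.7 and 12.3 FPKM. Of 12 transcriptional regulators, 3 rose and 4 fell in wild type, and 3 rose and 2 fell in the knockout. The fold change was above 0 at 8 of the 12 in each genotype, with medians of 0.36 in wild type and 0.35 in the knockout. Ppargc1a, the coactivator known to drive respiratory genes, stood at 3.15, 0.307, 4.56 and 0.490 FPKM and fell in both genotypes, and Esrra, an ERR partner of it, at 20.9, 9.58, 18.6 and 11.5 and fell in wild type. Nrf1 rose in both, with 3.84, 6.81, 3.83 and 6.37.

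The lists that follow are read against the same shares over all loci. Of 13 citric acid cycle genes, 6 fell and 1 rose in wild type and 3 fell and 1 rose in the knockout, and the gene that rose was citrate synthase (Cs; 60.3, 134, 51.2 and 102 FPKM). Among 6 other genes that feed ubiquinone, 4 fell and 1 rose in wild type, and 3 and 1 in the knockout. Mitochondrial ribosomal protein genes fell at 17 and rose at 5 of 76 in wild type (median -0.33), where 19.0% of all loci fell, and fell at 5 and rose at 8 in the knockout (-0.04), where 14.8% fell. Of 7 carriers and regulators of ATP synthase output, 3 fell in wild type, and in the knockout 1 fell and 1 rose. The riser was Slc25a4, the muscle and heart form of the ADP/ATP carrier, with 6.37, 6.68, 6.95 and 38.3 FPKM. Of 10 mitochondrial proteases and chaperones, 4 rose and 1 fell in wild type, and 5 rose and 0 fell in the knockout, and of 10 coenzyme Q genes, 1 fell in wild type and 0 in the knockout. Differences between the genotypes were not tested for these lists.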

How the data were processed

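Per the labels' protocols, frozen livers were extracted with TRIzol and libraries made with an Illumina TruSeq RNA kit after adding ERCC spike-ins. Per the submitters' processing notes, bcl2fastq, TopHat2 2.0.4, Cufflinks, Cuffdiff and mouse build mm9 were used. The annotation and the scaling used were not given in the sources used here. Per the file headers, the authors deposited 1 FPKM per locus and group and, for each of 6 comparisons, the log2 fold change with its test statistic (a score), p-value and q-value. Adjusting all 90828 p-values together by Benjamini-Hochberg gave back the deposited q-values. Of the comparisons, 4 were used here. Fold changes are log2 ratios of pooled FPKM. A locus was called where the deposited q was under 0.05 and the test status OK, and "rose", "fell", "higher" and "lower" of a member mean such calls. Approximate SEs are the fold change over the test statistic, scaled to the deposited p-values, and the test of response differences built on them was tested on simulated data. Transcript lengths come from GENCODE vM21. The members, lists and motifs were chosen with earlier results of these data known. Named were the 3 most abundant members and the largest called fall and rise of each complex, all members called between genotypes, alternative forms, core subunits and members that are no subunits, with a few others chosen after their values were seen; 1 item is not reported here. Values per library were not used here, so no replicate could be left out. Tools were matplotlib 3.10.9, scipy 1.17.1, pandas 2.3.3, numpy 2.4.6 and Python 3.11.15.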

Additional observations from a re-analysis of the deposited data

How the results depend on the processing

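With q-values adjusted within each comparison alone, 73 members fell in wild type and 41 in the knockout, and the 4 genotype calls under DMSO went to 0. Among loci whose higher group reached 1 FPKM the counts were 74, 41 and 0. Requiring a 1.5-fold change as well left 62, 26 and 2, the last being Cox6b2 and Ndufaf6. On the same-sum FPKM scale, an alternative chosen after seeing the data, an approximate test gave 42 members in wild type, 19 in the knockout and 1 between genotypes under DMSO, and the wild-type median moved to -0.51, while the genotype median under DMSO went from -0.23 to 0.0185 (-0.14 when centred on the median locus, -0.04 without the 100 most abundant loci). These scales move all loci alike, so they bear on the sign and not on the members' distance from all loci. Centred on the median locus, also added after seeing the data, the approximate test gave 1 under DMSO, and 73 and 50 after tunicamycin. Without rescaling it gave 0 between genotypes under DMSO, and 73 and 41 after tunicamycin. The share of all loci called was not counted at the alternative q-values, at 1.5-fold or by the approximate test on any scale. These member counts therefore have no background beside them. A pseudocount of 1, where it was applied, and the choice of members (without those that are no subunits, 1 locus per symbol) left each median's sign as it was and each count within 1.5 times. No member lay in a locus that carried several gene names. Several members shared their interval with another gene, among them Ndufb9 with Rnf139 and Tatdn1, Ndufa7 with Rps28, and Ndufa4l2 with Shmt2. How far this touched their levels was not tested. Under tunicamycin 0 members differed between genotypes, and 0 in response, under every alternative run. No paired analysis was possible because the table holds 1 pooled value per group, and no library could be left out. Depth per library is unknown, so the precision of low members cannot be stated.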
